A study of Mus musculus with 2 samples.

Results

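The 10 genes described here make up the core of the major histocompatibility complex (MHC) class I system in the mouse, chosen by name out of 55487 gene features. They are the classical heavy chains H2-K1 and H2-D1, the nonclassical heavy chains H2-Q4, H2-Q6, H2-Q7, H2-T10, H2-T22 and H2-T23, the shared light chain B2m and the regulator Nlrc5. The levels of these genes were measured in thymic epithelial cells of NOD, BALB/c and C57BL/6 (B6) mice and in the cell types that marker genes could separate among those cells.

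A class I molecule is a heavy chain that pairs with beta-2-microglobulin, the product of B2m, and carries a peptide from inside the cell to its surface. Classical heavy chains show such peptides to CD8 T cells, and in the thymus this display on epithelial cells helps to select and to tolerise developing T cells. Nonclassical heavy chains vary less between strains and are seen by other receptors: H2-T23 encodes Qa-1, which is read by CD94/NKG2A receptors, H2-Q6 and H2-Q7 encode Qa-2 chains, and the products of H2-T10 and H2-T22 are ligands of some gamma delta T cells. NLRC5 is a transactivator that binds class I and B2m promoters through their X and Y boxes, and interferon signalling raises most of these genes.

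Thymic mimetic cells are medullary thymic epithelial cells (mTEC) whose gene expression resembles that of cells outside the thymus, such as tuft cells, ciliated cells or keratinocytes. Cells sorted as Pdpn- CD104- mTEClo after depletion of CD45+ cells were pooled from 2 NOD, 2 BALB/c and 2 B6 mice in 1 droplet capture, with a hashtag antibody for each mouse. All mice were 6-week-old females, no mouse was treated, and the labels name no transgene. NOD is the strain that develops autoimmune diabetes, and as background knowledge it carries the H2g7 haplotype (the K allele of d and the D allele of b), BALB/c carries H2d, and B6 carries H2b, the haplotype of the reference genome. By these haplotypes NOD shares the K allele with BALB/c and the D allele with B6. Since the reference holds only b alleles, a strain difference in a class I gene need not come from its RNA level alone. It can also come from how well the reads of another allele map, or from reads of genes that the reference lacks. These cannot be told apart in the deposited counts.

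Of 3447 barcodes, 2527 passed 500 detected genes and 15% mitochondrial unique molecular identifiers (UMIs), and 1705 of these had 100 or more hashtag UMIs with at least 80% from 1 hashtag. After barcodes with leukocyte marker sets were set aside, 1622 cells entered the epithelial sums, 109 and 121 in NOD mice, 394 and 569 in BALB/c mice, and 207 and 222 in B6 mice. The sums held 2210151 to 9200494 UMIs per mouse, and the median UMIs per assigned cell lay between 12506 and 14021. Cell types were gated on fixed marker lists, and a type is named here for the list whose genes its cells held. H2-Ea, whose promoter is deleted in the b and g7 haplotypes, had 11.8 and 9.33 CPM (UMIs of the gene scaled to a common total per sum) in NOD mice, 943 and 802 CPM in BALB/c mice, and 55.3 and 24.6 CPM in B6 mice, which sets BALB/c mice apart from the others but not NOD from B6. In the epithelial sums the 13 myeloid or dendritic markers summed to 85.2 to 364 CPM, highest in NOD 1, the 13 thymocyte markers to 15.4 to 61.6 CPM, and the 10 B lineage markers to 282 to 411 CPM. Between 8 and 12 of the 13 thymocyte markers had a UMI in each mouse, while Rag1 was at 0 in every mouse.

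All 8 heavy chain genes lie on chromosome 17 of mm10. H2-K1 (ENSMUSG00000061232.16) spans bases 33996017 to 34000347 on the minus strand, and H2-D1 (ENSMUSG00000073411.12) spans 35262730 to 35267499 on the plus strand. H2-T10 spans 36115876 to 36121465 and is annotated as a polymorphic pseudogene, and H2-T22 spans 36037128 to 36042747, both on the minus strand. B2m lies on chromosome 2 (122147686 to 122153083) and Nlrc5 on chromosome 8 (94434356 to 94527272). The 3' libraries count reads near the transcript end, so the last 500 bases of each gene's transcripts were cut into stretches of 31 bases and looked for in other genes. H2-T10 shared 73.2% of these with another gene, all of them with H2-T22, and H2-T22 shared 72.7% with H2-T10. The share was 66% for H2-T23, 59.6% for H2-Q6, 53.8% for H2-Q4, 27.2% for H2-D1, 24.4% for H2-K1 and 21% for H2-Q7, against 0 for B2m and Nlrc5. These shares also cover genes outside class I. The largest sharers were Gm43321 (25.7%) and Olfr1238 (20.6%) for H2-Q4, and H2-T-ps (22.3%) and Rab33b (21.9%) for H2-T23. Counts of H2-T10 and H2-T22, and of H2-Q6 and its neighbours, are therefore uncertain as counts of 1 gene.

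The promoters were searched for short elements known from class I genes. RefSeq promoter sequences of build GRCm38.p6 were at hand for 8 of the 10 genes, and the 205 bases before the start are printed for 5 of them that stand for the classical, Q, T and light chain members. Capitals mark, on either strand, CCAAT (letters of the Y box), TGACG (letters of the X2 box), GGGGATTCC (a kappa B site), and the interferon response cores AAANNGAAA and GAANNGAAA. The last of these was added after the sequences were read. Marks go by letters alone, wherever in the window they lie. Each run is the strand of the gene, 5′ to 3′. The windows are chr17:34000348-34000552 on the minus strand for H2-K1, chr17:35262889-35263093 on the plus strand for H2-D1, chr17:35438950-35439154 on the plus strand for H2-Q7, chr17:36042743-36042947 on the minus strand for H2-T22 and chr2:122147482-122147686 on the plus strand for B2m.
H2-K1: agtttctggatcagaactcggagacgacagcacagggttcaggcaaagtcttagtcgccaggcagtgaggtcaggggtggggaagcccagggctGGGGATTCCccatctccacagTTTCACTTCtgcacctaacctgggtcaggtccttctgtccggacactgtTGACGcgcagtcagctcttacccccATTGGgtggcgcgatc
H2-D1: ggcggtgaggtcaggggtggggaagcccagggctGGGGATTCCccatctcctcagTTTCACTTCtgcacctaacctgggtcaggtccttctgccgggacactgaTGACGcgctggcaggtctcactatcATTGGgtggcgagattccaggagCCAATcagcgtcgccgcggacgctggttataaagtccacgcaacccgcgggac
H2-Q7: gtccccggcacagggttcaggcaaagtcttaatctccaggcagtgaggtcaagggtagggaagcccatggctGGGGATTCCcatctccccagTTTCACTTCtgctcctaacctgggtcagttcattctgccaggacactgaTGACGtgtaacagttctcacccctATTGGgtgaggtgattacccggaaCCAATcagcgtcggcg
H2-T22: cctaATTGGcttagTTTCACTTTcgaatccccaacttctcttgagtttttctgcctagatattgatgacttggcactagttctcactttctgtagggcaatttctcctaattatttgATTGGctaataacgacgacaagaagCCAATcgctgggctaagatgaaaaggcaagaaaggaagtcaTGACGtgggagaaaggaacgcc
B2m: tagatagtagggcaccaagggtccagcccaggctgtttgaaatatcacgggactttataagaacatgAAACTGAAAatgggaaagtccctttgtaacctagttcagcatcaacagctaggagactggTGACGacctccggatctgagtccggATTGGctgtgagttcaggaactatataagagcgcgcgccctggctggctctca
Each of the 8 promoters held CCAAT, which 37.4% of 32851 mouse promoters of 300 bases hold. A kappa B match stood in H2-K1, H2-D1, H2-Q6 and H2-Q7, and in 0.25% of all promoters, and each of those 4 also held GAANNGAAA, which 7.52% of all promoters hold. H2-Q4 held GAANNGAAA without a kappa B match. H2-T22, H2-T23 and B2m held AAANNGAAA instead, found in 10.6% of all promoters. TGACG was found in 6 of the 8, all but H2-Q6 and H2-T23, and in 20.8% of all promoters. Its place differed: in H2-D1 it began at -101, before the CCAAT matches at -76 and -53. In H2-T22 it began at -22, after CCAAT matches at -88 and -63, and in H2-Q4 at -73, after a CCAAT match at -79. In H2-K1, H2-Q7 and B2m a TGACG match also stood before a CCAAT match, at -41 and -16, -64 and -40, and -78 and -53. H2-D1, H2-K1, H2-Q7 and B2m thus held the 2 motifs at a like distance, and H2-T22 and H2-Q4 did not. A match describes letters in the window and not a bound site.

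H2-K1 and H2-D1, the classical heavy chains, moved in opposite directions between BALB/c and B6 mice. H2-K1 had 2462 and 2091 CPM in NOD mice, 2086 and 1854 CPM in BALB/c mice, and 3017 and 3320 CPM in B6 mice. The B6 mice lay above all others, and the lower NOD mouse lay just above the higher BALB/c mouse. H2-D1 had 2755 and 2421 CPM in NOD mice, 4904 and 4603 CPM in BALB/c mice, and 2325 and 2448 CPM in B6 mice. Here the BALB/c mice lay above all others, and the NOD and B6 ranges overlapped. BALB/c over B6, H2-K1 fell by 0.70 ± 0.13 on the log2 scale (SE; edgeR quasi-likelihood test, adjusted p = 0.0181) and H2-D1 rose by 0.98 ± 0.12 (adjusted p = 0.00468). H2-D1 also fell in NOD over BALB/c, by 0.78 ± 0.12 (edgeR adjusted p = 0.0133). Its difference of 0.20 ± 0.12 in NOD over B6 did not pass (edgeR adjusted p = 0.252), nor did H2-K1 in NOD over BALB/c (0.31 ± 0.13, adjusted p = 0.183) or NOD over B6 (-0.39 ± 0.13, adjusted p = 0.0633). With 2 mice a strain, the H2-K1 call was lost when any 1 BALB/c or B6 mouse was left out (adjusted p = 0.0637 to 0.139), and the H2-D1 call in NOD over BALB/c when any 1 NOD or BALB/c mouse was (adjusted p = 0.0538 to 0.0698).

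**Figure D1:**
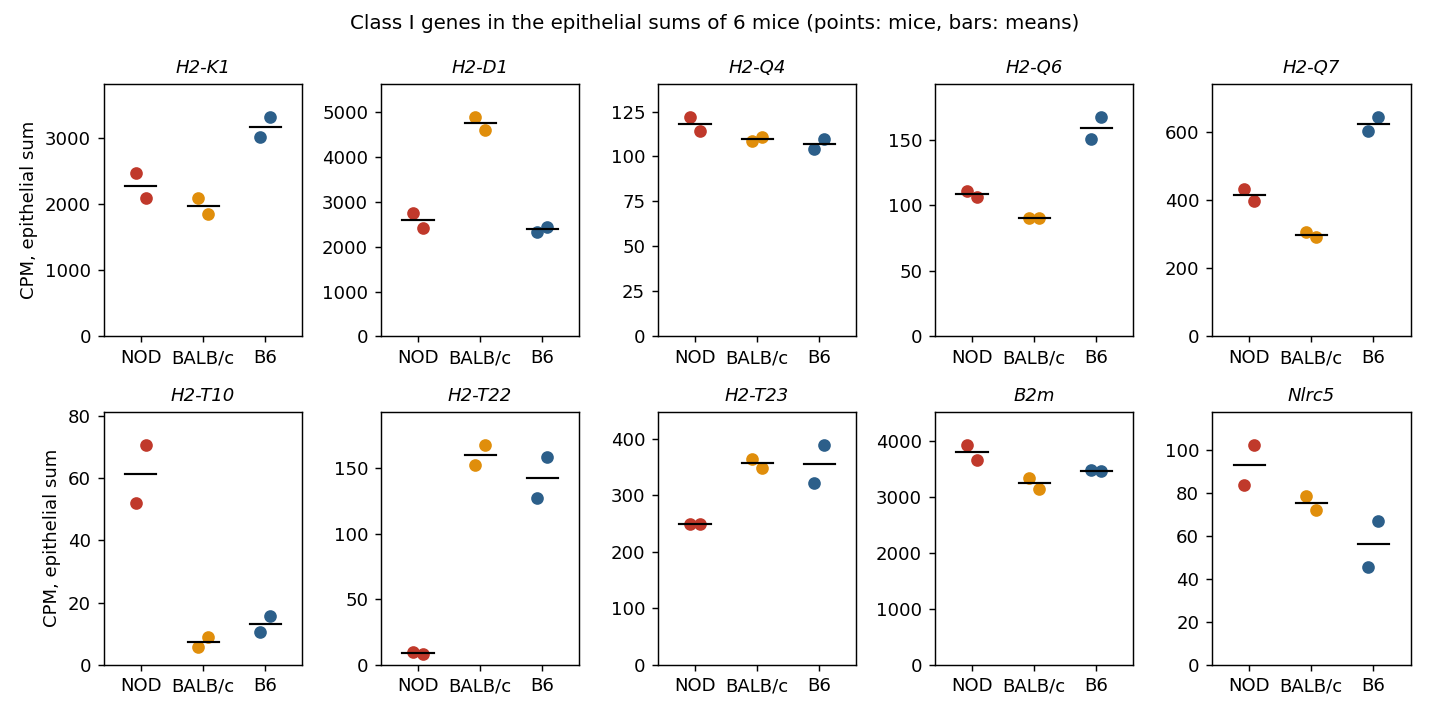
CPM of the 10 genes (y axis, from 0) in the epithelial sum of each mouse, with the strains NOD, BALB/c and B6 along the x axis; points are mice and bars are strain means. H2-T10 stands at 52.0 and 70.8 CPM in NOD mice and H2-T22 at 9.95 and 8.48 CPM, against at most 15.7 CPM of H2-T10 and at least 127 CPM of H2-T22 in the other mice.

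The share of H2-K1 among H2-K1 plus H2-D1 UMIs does not depend on depth. It was 47.2% and 46.3% in NOD mice, 29.8% and 28.7% in BALB/c mice, and 56.5% and 57.6% in B6 mice. In these sums the strains did not overlap. Over the sums of single types the share lay between 33.1% and 54.5% in NOD, 21.3% and 42.3% in BALB/c, and 52.2% and 65.9% in B6 mice. NOD thus overlapped both other strains across types. Within any 1 type, BALB/c sums stayed below NOD sums and NOD sums below B6 sums. The mean difference was 17.5 points for NOD minus BALB/c, -10.2 for NOD minus B6 and -27.7 for BALB/c minus B6, each with an exact two-sided permutation p of 0.3333, the smallest that 2 mice against 2 allow. Over all 3 strains the exact permutation p was 0.06667, again the smallest possible. The sum of both genes was 5217 and 4511 CPM in NOD mice, 6990 and 6458 CPM in BALB/c mice, and 5342 and 5768 CPM in B6 mice.

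Among the nonclassical Q genes, H2-Q7 and H2-Q6 were highest in B6 mice. H2-Q7 had 433 and 398 CPM in NOD mice, 307 and 292 CPM in BALB/c mice, and 605 and 646 CPM in B6 mice, and H2-Q6 had 111 and 106 CPM, 90.4 and 90.8 CPM, and 151 and 168 CPM in the same order. The 3 strains did not overlap for either gene in these sums, and how many other genes separate them was not counted. H2-Q7 fell in BALB/c over B6 by 1.08 ± 0.11 and in NOD over B6 by 0.51 ± 0.11, and rose in NOD over BALB/c by 0.57 ± 0.11 (edgeR adjusted p = 0.00272, 0.0163 and 0.0249). H2-Q6 fell in BALB/c over B6 by 0.83 ± 0.11 and in NOD over B6 by 0.47 ± 0.11 (edgeR adjusted p = 0.00606 and 0.0223), and was 0.37 ± 0.11 in NOD over BALB/c (adjusted p = 0.0874). Without NOD 2 or B6 2 neither gene passed in NOD over B6 (adjusted p = 0.0796 to 0.111), and 4 other single omissions each ended 1 of these 2 calls. The H2-Q7 call in NOD over BALB/c was lost without either BALB/c mouse or NOD 1 (adjusted p = 0.101 to 0.141), and the H2-Q6 call in BALB/c over B6 without either BALB/c mouse (0.0554 and 0.0573). H2-Q4 ranged from 104 to 122 CPM over the 6 mice and passed in no strain comparison (edgeR adjusted p = 0.168 to 0.941).

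H2-T10 and H2-T22 showed the largest strain differences of the 10 genes. H2-T10 had 52.0 and 70.8 CPM in NOD mice (115 and 167 UMIs), 5.63 and 8.80 CPM in BALB/c mice, and 10.6 and 15.7 CPM in B6 mice. H2-T22 had 9.95 and 8.48 CPM in NOD mice (22 and 20 UMIs), 153 and 168 CPM in BALB/c mice, and 127 and 158 CPM in B6 mice. The NOD mice stood apart from the other 4 in both genes and in opposite directions. H2-T10 rose by 3.16 ± 0.31 in NOD over BALB/c and by 2.31 ± 0.31 in NOD over B6 on the log2 scale (edgeR adjusted p = 0.00298 and 0.00264). H2-T22 fell by 4.02 ± 0.19 in NOD over BALB/c and fell by 3.87 ± 0.19 in NOD over B6 (edgeR adjusted p = 0.000223 and 0.000143). These 4 calls held with any 1 mouse left out. In BALB/c over B6 neither gene passed (H2-T10 -0.86 ± 0.32, H2-T22 0.15 ± 0.14; edgeR adjusted p = 0.137 and 0.55).

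Set against each other, H2-T10 made up 83.9% and 89.3% of the H2-T10 plus H2-T22 UMIs in NOD mice, 3.56% and 4.98% in BALB/c mice, and 7.71% and 9.00% in B6 mice; this share was added after the values were seen. The exact permutation p was 0.3333 for each pair of strains and 0.06667 over all 3, the smallest possible. The summed level of the pair was 62.0 and 79.3 CPM in NOD mice, 158 and 177 CPM in BALB/c mice, and 138 and 174 CPM in B6 mice, so the rise of H2-T10 did not make up in UMIs for the fall of H2-T22. The exchange appeared in each of the 6 types that had a NOD sum of at least 10 cells. Over all 10 types the H2-T10 share lay between 76.2% and 94.7% over 9 NOD sums, between 0.877% and 9.33% over 15 BALB/c sums, and between 1.69% and 16.5% over 8 B6 sums. In single epithelial cells thinned to 4000 UMIs, 14.0% and 27.5% of NOD cells had an H2-T10 UMI, against 1.99% and 3.55% of BALB/c cells and 2.59% and 7.96% of B6 cells. The unthinned shares were 45.9% and 53.7%, 7.87% and 12.1%, and 14.5% and 19.4% in the same order. Free RNA of the pool can add UMIs to any cell, and no gated type that lacks class I was at hand to set a background share.

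**Figure D2:**
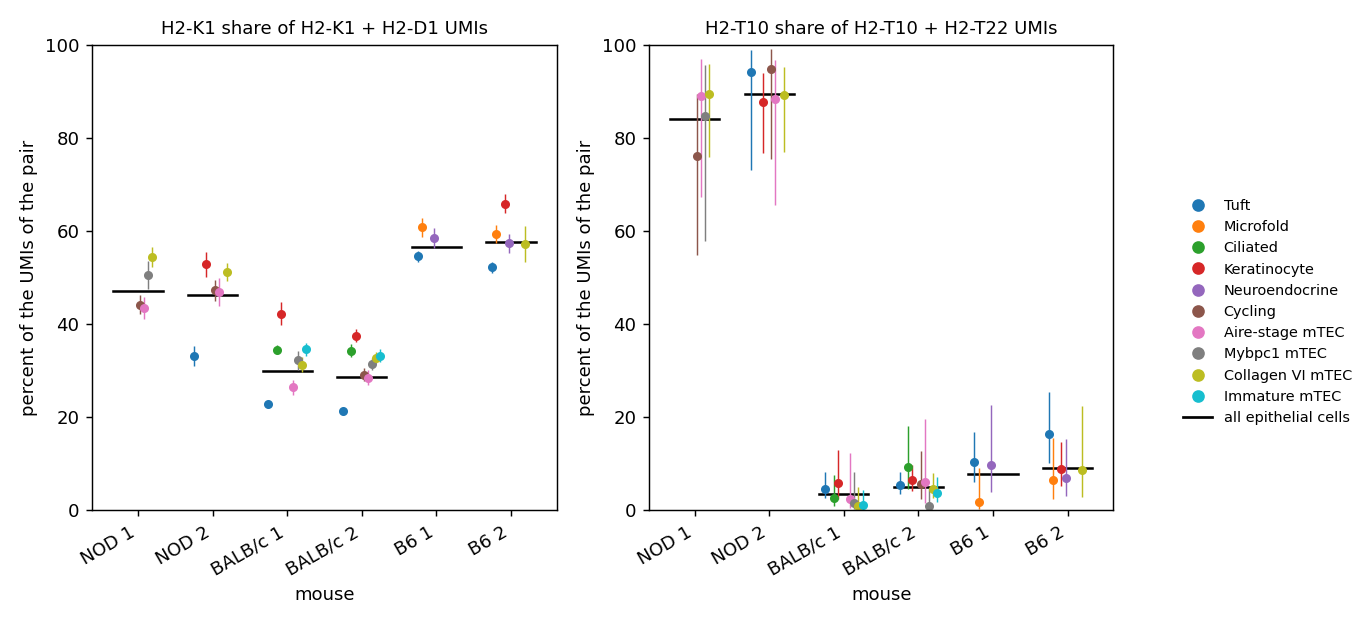
Share of H2-K1 among H2-K1 plus H2-D1 UMIs (left) and of H2-T10 among H2-T10 plus H2-T22 UMIs (right), in percent, for each mouse along the x axis; coloured points are cell type sums of at least 10 cells with Wilson 95% intervals for counting error, and black bars are all epithelial cells of the mouse. On the left the bars stand at 47.2% and 46.3% in NOD, 29.8% and 28.7% in BALB/c, and 56.5% and 57.6% in B6, and on the right every NOD point is above 76% and every other point is below 17%.

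H2-T23, which encodes Qa-1, had 249.8 and 249.2 CPM in NOD mice, 365 and 348 CPM in BALB/c mice, and 321 and 389 CPM in B6 mice. The NOD mice were the lowest. The fall in NOD over B6 was 0.42 ± 0.13 (edgeR adjusted p = 0.0449), and the value in NOD over BALB/c was -0.41 ± 0.13 (adjusted p = 0.0872). The NOD over B6 call was lost when B6 2, or any 1 BALB/c or NOD mouse, was left out (adjusted p = 0.0851 to 0.22). It was also lost with HTODemux singlets, all assigned cells, a hashtag share of 90% or the replicate block (adjusted p = 0.0674, 0.16, 0.0691 and 0.161).

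B2m passed in no strain comparison by edgeR. Its levels were 3925 and 3654 CPM in NOD mice, 3337 and 3132 CPM in BALB/c mice, and 3484 and 3449 CPM in B6 mice. The differences were 0.33 ± 0.11 in NOD over BALB/c, 0.21 ± 0.11 in NOD over B6 and -0.12 ± 0.11 in BALB/c over B6 (edgeR adjusted p = 0.113, 0.20 and 0.561), and DESeq2 called the first of these (adjusted p = 0.00981). Nlrc5 had 83.7 and 103 CPM in NOD mice, 78.6 and 72.2 CPM in BALB/c mice, and 45.6 and 66.9 CPM in B6 mice. Its rise in NOD over B6 was 0.81 ± 0.20 (edgeR adjusted p = 0.0235) and was lost without NOD 2 or B6 1 (adjusted p = 0.0899 and 0.0863).

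In all, 6 of the 10 genes passed in NOD over B6, where 28.0% of the 15415 genes tested passed, 4 of 10 in NOD over BALB/c (9.92% of all genes), and 4 of 10 in BALB/c over B6 (11.2%). The median log2 difference of the 10 genes was -0.10, 0.32 and -0.07 in these comparisons, against -0.03, -0.02 and 0.01 over all genes tested. In those sums cell makeup and RNA per cell cannot be told apart. Tuft cells made up 6.42% and 9.09% of the epithelial cells in NOD mice, 30.7% and 30.1% in BALB/c mice, and 54.6% and 40.5% in B6 mice. Cells of the Collagen VI gate (Col6a1, Col6a2 and Kcnip4) made up 34.9% and 42.1%, 10.7% and 12.8%, and 1.45% and 4.95% in the same order.

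With cell type held in the fit, the counts became 4 of 10 in NOD over B6 (3.35% of 10083 genes), 4 of 10 in NOD over BALB/c (3.71%) and 4 of 10 in BALB/c over B6 (2.08%), from limma with mouse as block over 24 sums of 6 types. B6 entered this fit with tuft sums of both mice, and with Keratinocyte and Collagen VI sums of B6 2 alone (18 and 11 cells). The Aire-stage, cycling and Mybpc1 types had no B6 sum, and the only NOD tuft sum held 11 cells of NOD 2. The block correlation was -0.0292, so the sums of 1 mouse entered much like separate replicates. Adjusted p values of this fit thus rest largely on the spread between type sums rather than between mice. H2-T10 and H2-T22 were called again: 3.07 ± 0.26 and -4.12 ± 0.25 in NOD over BALB/c (limma adjusted p = 6.23e-09 and 6.19e-12). H2-D1 was -0.82 ± 0.11 in the same comparison (limma adjusted p = 3.13e-05) and 1.04 ± 0.16 in BALB/c over B6 (adjusted p = 0.000293). H2-Q7 fell by 1.23 ± 0.15 in BALB/c over B6 and by 0.95 ± 0.16 in NOD over B6 (limma adjusted p = 1.32e-05 and 0.000774). H2-K1 and H2-Q6 also fell in BALB/c over B6, by 0.75 ± 0.15 and 1.04 ± 0.18, and H2-Q6 fell in NOD over B6 by 0.89 ± 0.19 (limma adjusted p = 0.00467, 0.00108 and 0.00822). The H2-K1 call was lost without B6 2, BALB/c 1 or BALB/c 2 (adjusted p = 0.0553 to 0.0803), both H2-Q6 calls without B6 2 (0.0922 and 0.114), and that in NOD over B6 also without NOD 2 (0.206). H2-T23 passed narrowly in NOD over BALB/c (-0.45 ± 0.13, limma adjusted p = 0.0485) and lost the call in 5 of the 6 fits with a mouse left out (adjusted p = 0.065 to 0.216). Nlrc5 no longer passed, with 0.23 ± 0.31 in NOD over B6 on the few B6 sums (limma adjusted p = 0.766).

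Within 1 cell type, 3 comparisons had 2 mice with at least 10 cells on each side. In tuft cells, 5 of 10 genes passed in BALB/c over B6, where 20.8% of 11600 genes did. H2-D1 was 4843 and 4870 CPM in BALB/c tuft cells, against 2153 and 2380 CPM in B6 tuft cells, a rise of 1.05 ± 0.12 (edgeR adjusted p = 4.68e-05). H2-K1 fell by 0.97 ± 0.12 (1428 and 1314 CPM in BALB/c, against 2587 and 2595 CPM in B6; edgeR adjusted p = 9.23e-05), and H2-Q7 and H2-Q6 fell by 1.33 ± 0.16 and 0.99 ± 0.17 (adjusted p = 0.00013 and 0.00123). H2-T22 rose by 0.56 ± 0.17 (edgeR adjusted p = 0.0309), a call lost without B6 2, BALB/c 1 or BALB/c 2 (adjusted p = 0.06666 to 0.249).

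In Collagen VI cells, 4 of 10 genes passed in NOD over BALB/c, against 5.40% of 7814 genes. H2-D1 had 2281 and 2195 CPM in NOD sums and 4642 and 4909 CPM in BALB/c sums, a fall of 1.05 ± 0.17 (edgeR adjusted p = 5.05e-07). H2-T22 fell by 4.76 ± 0.36 and H2-T10 rose by 3.02 ± 0.43 (edgeR adjusted p = 7.38e-23 and 3.04e-08). Adjusted p values of this fit rest mostly on spread pooled over genes, not on the spread between 2 mice a side. H2-T23 fell by 0.82 ± 0.21 (adjusted p = 0.00511), lost without either NOD mouse or BALB/c 2 (adjusted p = 0.0778 to 0.255). In cells of the Aire-stage gate, none of the 10 passed by edgeR at 10 to 22 cells a sum, where 0.363% of 5784 genes passed, although H2-T10 and H2-T22 differed by 3.90 ± 0.72 and -3.53 ± 0.64 (adjusted p = 0.11 and 0.098). H2-D1 was at -1.04 ± 0.25 in Aire-stage cells (edgeR adjusted p = 0.25), near its value in Collagen VI cells. Of the 10 genes, 3 had an unadjusted p under 0.05, against 367 of all 5784 genes. An edgeR interaction test, added after the data were seen, compared the NOD over BALB/c effect between the Collagen VI and Aire-stage gates. None of the 10 genes passed. The estimates were wide, with H2-T22 at -1.22 ± 1.03 and H2-T10 at -0.83 ± 0.93, so the test cannot show that the effects were alike. In that test 0.0243% of 8245 genes passed. No member had an unadjusted p under 0.05 there, against 404 of all genes.

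The wider pathway was read from lists of other genes. Of 13 genes for peptide loading and the immunoproteasome, 11 rose and none fell in NOD over B6 by edgeR in the epithelial sums. Of all 15415 genes tested, 2161 rose and 2161 fell there. The list median was 0.77 against -0.03 over all genes. Psme2, a proteasome activator subunit, led with 1.28 ± 0.17 (edgeR adjusted p = 0.00256), followed by the immunoproteasome subunit Psmb8 with 0.98 ± 0.11 and the peptide transporter genes Tap2 and Tap1 with 0.95 ± 0.14 and 0.87 ± 0.13. With cell type held, 2 of the 13 still passed in NOD over B6, where 3.35% of all genes did. These were Psmb8 with 1.24 ± 0.18 and Psme2 with 0.88 ± 0.20 (limma adjusted p = 7.23e-05 and 0.0136). The same 2 genes passed in NOD over BALB/c (0.77 ± 0.11 and 0.62 ± 0.13), where 3.71% of all genes did. Psmb8 had 502 and 461 CPM in NOD mice, 277 and 265 CPM in BALB/c mice, and 259.7 and 259.1 CPM in B6 mice. Of 17 interferon and class I regulators tested with cell type held, 2 rose in NOD over B6, where 139 of all 10083 genes rose. Among them was Ifnar2, a type I interferon receptor chain, with 0.91 ± 0.25 (limma adjusted p = 0.04). None of the 17 passed in the other comparisons. Among other class I genes, H2-Q5 had 1.36 and 2.54 CPM in NOD mice, 16.9 and 21.3 CPM in BALB/c mice, and 26.95 and 22.7 CPM in B6 mice, and it fell by 3.32 ± 0.38 in NOD over B6 with cell type held (limma adjusted p = 4.13e-06).

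Tuft cells, which in the periphery sense luminal signals through Trpm5, had lower levels of most class I genes than the mean of the other types. Against the mean of the other 9 types, with mouse as a term in the fit over 32 sums, 7 of the 10 genes fell and none rose. Of the 11976 genes tested, 41.8% passed in this comparison, and 18.6% passed downward. The median log2 difference was -0.66 for the 10 genes and -0.05 over all genes. Of the genes that fell, H2-Q7 and H2-T23 had their lowest type mean in tuft cells, and the others did not. Mean Nlrc5 was 41.1 CPM in tuft and 31.8 CPM in microfold cells, and mean H2-Q4 was 91.3 and 79.8 CPM. Mean H2-K1 was 2043 CPM in tuft and 1876 CPM in Aire-stage cells, and mean H2-T22 was 71.2 and 43.5 CPM. These means cover different mice. H2-Q7 fell furthest, with 212 CPM in NOD 2, 149 and 127 CPM in BALB/c tuft cells, and 383 and 288 CPM in B6 tuft cells, a difference of -1.45 ± 0.16 (edgeR adjusted p = 8.29e-09). H2-T22 fell by 1.02 ± 0.17, H2-T23 by 0.88 ± 0.18 and H2-Q6 by 0.78 ± 0.16 (edgeR adjusted p = 1.36e-05, 0.000137 and 0.000161). Nlrc5 fell by 0.85 ± 0.21, H2-K1 by 0.55 ± 0.14 and H2-Q4 by 0.53 ± 0.16 (edgeR adjusted p = 0.00159, 0.0027 and 0.00797). Without BALB/c 1 or BALB/c 2 the count was 4 of 10 each time, since these last 3 genes lost their calls (adjusted p = 0.0559 to 0.159), and H2-Q4 also lost it without NOD 2 or B6 2 (0.0713 and 0.0679).

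H2-D1 was the classical gene that did not follow in tuft cells. Its difference was 0.15 ± 0.15 (edgeR adjusted p = 0.483), and B2m was at -0.34 ± 0.14 (adjusted p = 0.0506). Tuft cells had the lowest H2-K1 share of all gated types in each of the 5 mice with a tuft sum: 33.1% in NOD 2, 22.8% and 21.3% in BALB/c mice, and 54.6% and 52.2% in B6 mice. In NOD 2 the 11 tuft cells had 4624 CPM of H2-D1, while the other NOD sums had 1434 to 2738 CPM, and 4589 CPM of B2m. Their H2-T10 and H2-T22 levels, 56.6 and 3.54 CPM, lay with the other NOD sums. The 7 tuft cells of NOD 1 were too few for a sum.

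**Figure D3:**
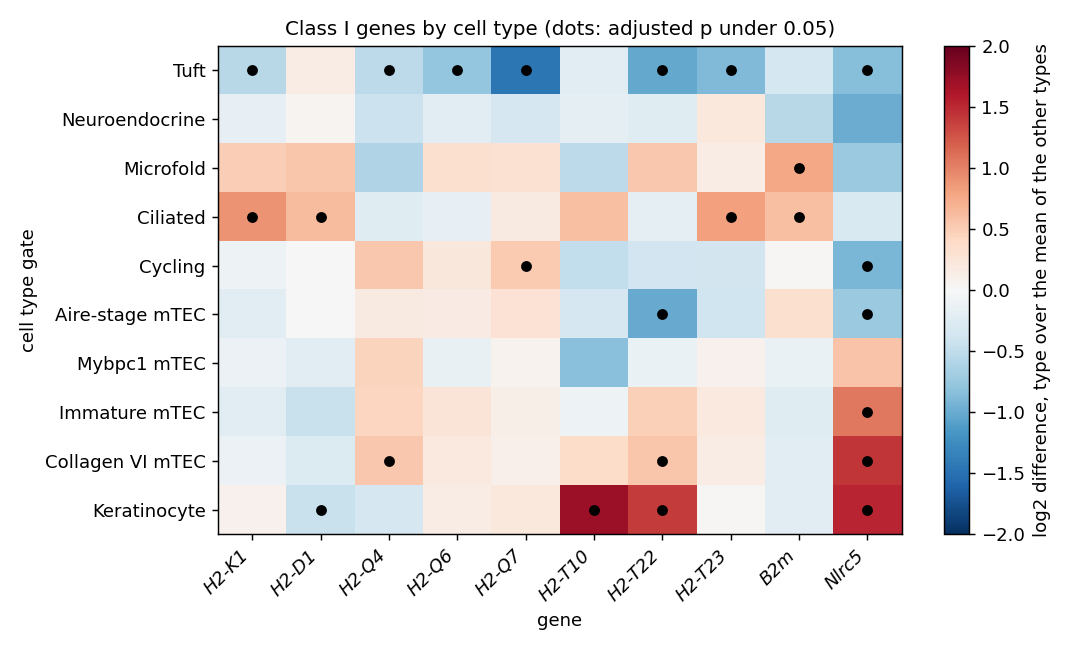
Log2 difference of each gene (x axis) in each cell type gate (y axis) over the mean of the other types, from edgeR over 32 sums with mouse as a term; red is higher, blue is lower, and dots mark adjusted p under 0.05. The tuft row holds 7 dots, all blue, and the Nlrc5 column holds 3 red dots, in the Immature, Collagen VI and Keratinocyte gates.

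Nlrc5 was high in 3 of the gates. Collagen VI cells had 213 and 191 CPM in NOD mice, 219 and 138 CPM in BALB/c mice, and 113 CPM in B6 2. Keratinocyte cells had 145 CPM in NOD 2, 164 and 181 CPM in BALB/c mice, and 126 CPM in B6 2, and cells of the Immature gate (Krt5, Krt14 and others) had 131 and 137 CPM in BALB/c mice. Each of these sums lay above every sum of the tuft, ciliated, microfold, neuroendocrine, cycling and Aire-stage types, which reached at most 81.8 CPM, while Mybpc1 cells spanned both ranges, with 52.2 CPM in NOD 1 and 155 and 89.7 CPM in BALB/c mice. The rise was 1.52 ± 0.20 in Keratinocyte cells, 1.43 ± 0.19 in Collagen VI cells and 1.05 ± 0.27 in Immature cells (edgeR adjusted p = 3.53e-07, 1.43e-06 and 0.00823). The Immature call was lost without BALB/c 1 or BALB/c 2 (adjusted p = 0.105 and 0.55), while the first 2 held with any 1 mouse left out. Nlrc5 fell in cycling cells by 0.91 ± 0.31 and in Aire-stage cells by 0.74 ± 0.28 (edgeR adjusted p = 0.0279 and 0.0457). Both calls were lost without B6 2 or BALB/c 2, the cycling call also without NOD 2, and the Aire-stage call also without NOD 1 or BALB/c 1 (adjusted p = 0.111 to 0.441).

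The order of B2m over types was not that of Nlrc5. Mean B2m was 4958 ± 492 CPM in microfold cells (SD, n = 2 mice), 4885 ± 51.8 CPM in ciliated cells (n = 2), 4200 ± 379 CPM in Aire-stage cells (n = 4) and 3661 ± 104 CPM in cycling cells (n = 3). The lower end held Mybpc1 cells with 3471 ± 563 CPM (n = 3), Collagen VI cells with 3358 ± 350 CPM (n = 5), tuft cells with 3122 ± 854 CPM (n = 5), Immature cells with 3042 ± 62.0 CPM (n = 2), neuroendocrine cells with 3019 ± 1024 CPM (n = 2) and Keratinocyte cells with 2733 ± 297 CPM (n = 4). Neighbours in this order differed by less than the larger of their SDs, apart from the steps between ciliated, Aire-stage and cycling cells. B2m rose in microfold cells by 0.77 ± 0.24 and in ciliated cells by 0.60 ± 0.20 (edgeR adjusted p = 0.0275 and 0.0248). Over the 32 sums, log2 B2m had a Pearson r of -0.30 with Nlrc5, 0.53 with H2-K1, 0.39 with H2-Q7 and 0.33 with H2-D1, while the median r over all genes was -0.02. These sums share mice and a pool, so r describes these sums only.

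**Figure D4:**
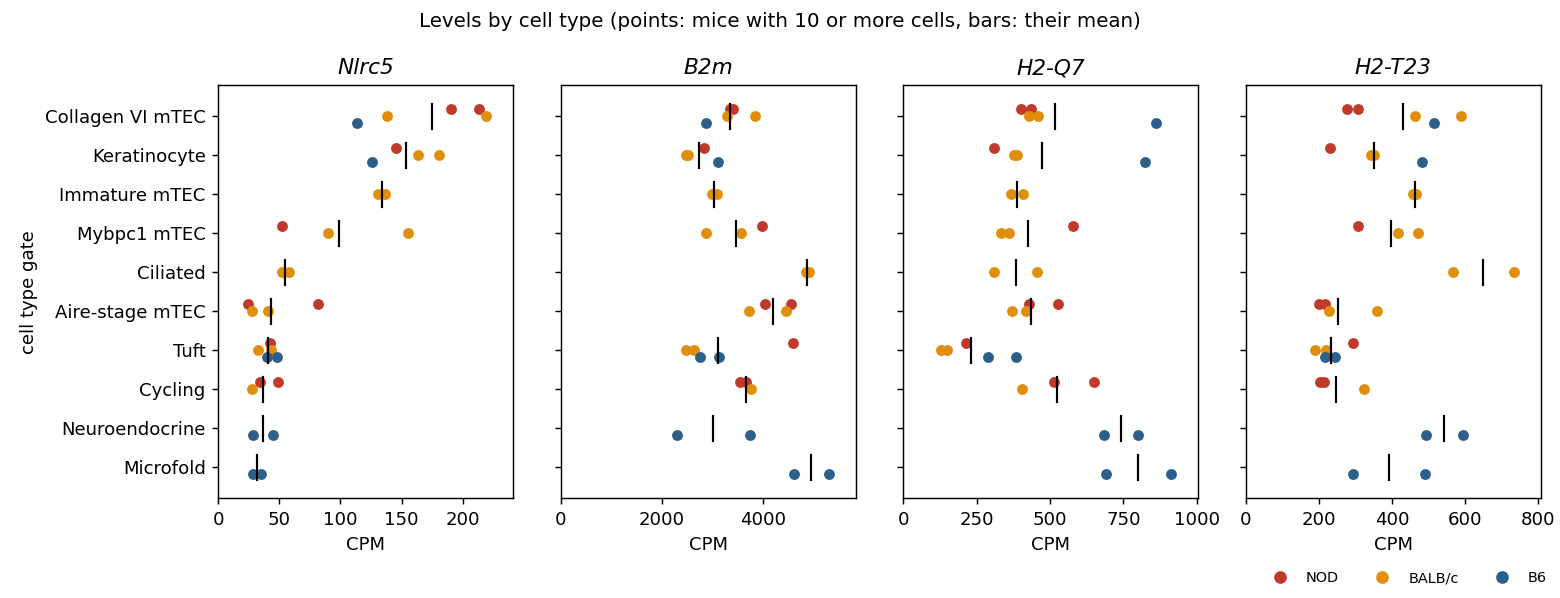
CPM (x axes, from 0) of Nlrc5, B2m, H2-Q7 and H2-T23 in each cell type gate (y axis, ordered by mean Nlrc5); points are mice with at least 10 cells, coloured by strain, and bars are their means. Nlrc5 is at 113 CPM or more in every Collagen VI, Keratinocyte and Immature sum, while B2m is highest in ciliated and microfold cells, where Nlrc5 is at 28.1 to 57.5 CPM.

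Ciliated cells had high classical chains. Both ciliated sums came from BALB/c mice, with 4199 and 3152 CPM of H2-K1 and 7973 and 6043 CPM of H2-D1. In them 4 of 10 genes passed, where 27.5% of all genes did, and all 4 rose: H2-K1 by 0.90 ± 0.20, H2-T23 by 0.82 ± 0.23, H2-D1 by 0.63 ± 0.22 and B2m as above (edgeR adjusted p = 0.00076, 0.00839, 0.0311 and 0.0248). Without BALB/c 1 the count was 0 of 10, and without BALB/c 2 only H2-K1 passed. Both microfold sums came from B6 mice, and B2m was the 1 gene of 10 that passed there (15.2% of all genes). That call was lost without any 1 B6 or BALB/c mouse (adjusted p = 0.0868 to 0.149).

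Keratinocyte cells, gated on genes of the cornified epidermis, were high in H2-T10 and H2-T22. H2-T22 had 15.9 CPM in NOD 2, 265 and 374 CPM in BALB/c mice and 361 CPM in B6 2, and H2-T10 had 113 CPM, 16.4 and 25.8 CPM, and 35.6 CPM in the same sums. Each value was the highest of its mouse among the gated types. In this gate 4 of 10 genes passed, against 41.6% of all genes. H2-T10 rose by 1.72 ± 0.29 and H2-T22 by 1.39 ± 0.17 (edgeR adjusted p = 1.25e-05 and 4.92e-08), beside the rise of Nlrc5. H2-T23 was at 0.03 ± 0.18 (edgeR adjusted p = 0.99). H2-D1 fell by 0.45 ± 0.17 (edgeR adjusted p = 0.0341), a call lost without BALB/c 1, BALB/c 2 or NOD 2 (adjusted p = 0.0563 to 0.318).

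In Collagen VI cells 3 of 10 genes passed (30.1% of all genes), all upward. Beside Nlrc5 these were H2-Q4 with 0.54 ± 0.16 and H2-T22 with 0.56 ± 0.17 (edgeR adjusted p = 0.00958 and 0.0139). The H2-Q4 call was lost without either BALB/c mouse (adjusted p = 0.0665 and 0.108) and the H2-T22 call without B6 2 or BALB/c 2 (0.0868 and 0.362), and with a stricter gate H2-T22 was at -0.13. The H2-Q4 call was also lost with the stricter gate (0.39 ± 0.26, adjusted p = 0.341) and with a minimum of 20 cells a sum (adjusted p = 0.0606). Of 18 interferon and class I regulators tested, 9 rose and none fell in these cells, where 2243 of all 11976 genes rose. The list median was 0.39 against 0.01 over all genes. The largest were Ciita, the class II transactivator, with 1.69 ± 0.23, Stat2 with 1.60 ± 0.18 and Jak2 with 1.57 ± 0.28 (edgeR adjusted p = 1.49e-06, 3.98e-08 and 0.00021). In the tuft gate the same list split into 5 genes up and 6 down, where 2780 of all genes rose and 2229 fell. Ciita was at -3.58 ± 0.33 and Irf7 at 1.14 ± 0.16 (edgeR adjusted p = 2.09e-10 and 9.98e-07). Peptide loading genes fell in tuft cells in 12 of 13 cases and rose in none, with a median of -0.86 against -0.05 over all genes. Psmb10, an immunoproteasome subunit, was at -1.51 ± 0.20, Tap2 at -1.47 ± 0.19 and Tapbpl, a peptide editor, at -1.46 ± 0.23 (edgeR adjusted p = 2.17e-07, 1.88e-07 and 5.83e-06). Of 8 class II genes, 7 fell in tuft cells and none rose, with a median of -2.35 against -0.05 over all genes, of which 18.6% passed downward in this gate.

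The other gates held few calls. In the Immature gate only Nlrc5 passed, 1 of 10 against 14.9% of all genes. In cycling cells 2 of 10 passed against 28.8%, Nlrc5 downward and H2-Q7 upward by 0.52 ± 0.18 (edgeR adjusted p = 0.0316), the H2-Q7 call being lost without BALB/c 2 or NOD 2 (adjusted p = 0.119 and 0.217). In Aire-stage cells 2 of 10 passed against 27.5%, Nlrc5 and H2-T22, which fell by 1.01 ± 0.25 (edgeR adjusted p = 0.00293) and lost the call without BALB/c 2 (adjusted p = 0.385). None of the 10 passed by edgeR in Mybpc1 cells (12.3% of all genes) or neuroendocrine cells (14.3%). In each, 2 of the 10 had an unadjusted p under 0.05, against 2929 and 3108 of all 11976 genes. The neuroendocrine sums came from B6 mice alone and the Immature sums from BALB/c mice alone.

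The genes most like B2m across the 32 sums, by Pearson r of log2 CPM, were Plb1 (0.804), Sri (0.783), Sumo3 (0.782), Serpinb10 (0.768), Mlec (0.762), Ndufa2 (0.757), Gng5 (0.747), Cib1 (0.747), Calr (0.745) and Mep1a (0.744). Among the members H2-Q6 and H2-Q7 had an r of 0.89 with each other, and H2-T10 and H2-T22 an r of -0.67. Strain and type both enter these values.

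Leukocytes were too few for sums per mouse. The 11 cells of the thymocyte gate, pooled over 5 mice, had 418 CPM of H2-K1 with an exact Poisson 95% interval of 299 to 569 CPM, and 1034 CPM of B2m (841 to 1259 CPM). The 26 B lineage cells had 2395 CPM of H2-K1 (2318 to 2474 CPM) and 3851 CPM of B2m (3753 to 3950 CPM). These intervals cover counting error only, and no test was made over cells.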

How the data were processed

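The capture was 1 pool of 6 mice, sequenced as 10x 3' gene expression with hashtag libraries. The authors deposited raw UMI counts per gene and barcode, made with Cell Ranger 7.0.0 on mm10 per the submitters' processing notes; the annotation release is not given in the sources used here. GENCODE M21 held 54349 of the 55487 identifiers with their version, H2-D1 not among them, so its coordinates come from another version of the same identifier.

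Barcodes were given to mice by hashtag counts, with the mouse taken from the title of the hashtag library, where both NOD mice carry the number 1. The labels name separate mice. Cell types were gated on marker lists, with bounds set after the counts were seen; a B lineage gate needed 10% of UMIs from its list. Counts were summed per mouse, or per type and mouse with at least 10 cells. No doublet caller was run. A barcode that passed several lists went to the best list if that led by at least 25 percentage points of its markers. The 42 assigned barcodes without such a lead stayed out of the type sums but entered the epithelial sums. A further 31 that passed several lists with a leukocyte list stayed out of both. Barcodes that passed no list were tried for the Aire-stage, Mybpc1, Collagen VI and Immature gates in that order. Sums were tested with edgeR 4.0.16 (quasi-likelihood, TMM) or limma 3.58.1 (voom, mouse as block) in R 4.3.3, with Benjamini-Hochberg adjustment over all genes tested and a threshold of 0.05. DESeq2 1.42.0, Seurat 5.3.0 (HTODemux), other gates, filters and scalings, and each mouse left out were alternatives. In data simulated for NOD over B6 epithelial sums (15415 genes), 33% of genes changed 2-fold and 100% of those changed 4-fold were recovered. False genes made up 2.92% of the calls there, 8.44% for NOD over B6 with cell type held, and 5.88% for tuft against the other types. For the strain comparisons within tuft, Aire-stage and Collagen VI cells the false share was 6.67%, 4.83% and 3.31%.

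Every member is named. The B2m-like genes are the 10 with the highest r, and of each list at most 4 genes past the threshold are named by size. One gene of the interferon list is not reported here by name. The members and lists were chosen with earlier results of these data known. The H2-T10 share, the pair sums, the interaction test and the motif GAANNGAAA were added after the data were seen. A contrast of leukocyte types was planned but not run, for lack of cells. Intervals cover counting error only.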

Additional observations from a re-analysis of the deposited data

Results flagged for a closer look

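H2-T10 had 89.5 CPM in the 822 barcodes that passed the cell filters but had no assigned mouse, against 52.0 and 70.8 CPM in the assigned epithelial cells of NOD mice, 5.63 and 8.80 CPM in those of BALB/c mice, and 10.6 and 15.7 CPM in those of B6 mice. The unassigned barcodes were not gated by cell type, and among assigned cells H2-T10 had 178 CPM in the thymocyte gate (11 cells) and 65.4 CPM in the myeloid or dendritic gate (15 cells). The unassigned barcodes enter none of the comparisons, and their strains are unknown. H2-T22 had 63.1 CPM in the same barcodes.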

How the results depend on the processing

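Over 14 refits each, 30 epithelial strain differences gave 420 values, of which 375 kept direction and side of the threshold, 38 lost a call, 7 gained one and none reversed. With cell type held, 252 of 270 did so, within types 127 of 140, and between types 962 of 1040. The 1 reversal was H2-T22 in Collagen VI cells, at -0.13 with a stricter gate. With 1 mouse left out at a time, genes of the 10 called ranged in the epithelial sums from 2 to 4 in each of NOD over BALB/c, NOD over B6 and BALB/c over B6, and with cell type held from 2 to 4 in BALB/c over B6. Within Aire-stage cells they ranged from 1 to 2. Between types they ranged from 4 to 7 in tuft, 0 to 4 in ciliated, 1 to 3 in Collagen VI, 0 to 3 in cycling, 0 to 3 in Aire-stage, and 0 to 1 in Immature, microfold, Mybpc1 and neuroendocrine cells. A stricter gate gave 1 in Collagen VI, 1 in cycling, 3 in Immature and 1 in Mybpc1 cells, a minimum of 20 cells gave 3 in Immature cells, and a hashtag share of 90% gave 0 in cycling and 0 in microfold cells. The cause was not tested.

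With the replicate block the epithelial counts were 3 in NOD over B6 and 2 in NOD over BALB/c. The numbers share only a name: the deviations of B6 and BALB/c number 1 correlated at 0.067, and both NOD mice carry the same number. With no replicate block (no mouse term) between types the counts were 1 in Aire-stage, 2 in Keratinocyte, 4 in microfold and 1 in neuroendocrine cells. Genes called among all genes ranged over the alternatives from 551 to 3127 in NOD over BALB/c, 2955 to 5577 in NOD over B6 and 1199 to 3392 in BALB/c over B6 in the epithelial sums, and with cell type held from 166 to 602, 220 to 446 and 192 to 807. H2-T10 and H2-T22 rest on 42 to 282 UMIs in NOD mice, which limits their precision.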
